A study of Homo sapiens with 16 samples.

Results

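The response of cytosolic and nuclear RNA to loss of FLII was examined in HBE cells, labelled an epithelial line of the lung. The comparison rests on 4 of the 16 libraries of the series: HBE NC cytosol, HBE FLII knockdown cytosol, HBE NC nuclear and HBE FLII knockdown nuclear, all of polyA RNA from cells at passage 15 to 18 grown in serum-containing medium. The knockdown cells carried a stable lentiviral short hairpin RNA against FLII, and the other cells are labelled NC with no further description. The number of hairpins or clones used, and whether the fractions came from separate cultures, are not stated in the sources at hand. The other libraries of the series are of mRNA and of ribosome-nascent chain RNA from HBE, and of H1299 cells with or without a FLII plasmid. Each fraction was taken as 1 pair, and a log2 fold of FLII knockdown over NC was computed per pair for the 8593 of 23709 genes with 50 or more summed reads in each pair. Genes and gene groups that moved in the same direction in both pairs are described here. Each group is 1 library, so no value has a replicate error. The intervals given are 95% exact conditional binomial (Clopper-Pearson) intervals of a fold, which cover counting error only, and a gene is said to have moved when it passed a stated size and its interval excluded no change in both pairs.

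FLII, flightless-1, is a member of the gelsolin family of actin-binding proteins. It joins gelsolin-like repeats, which bind actin, to leucine-rich repeats that bind other proteins, and it also acts in the nucleus as a partner of nuclear receptor complexes. RNA in the nucleus includes new transcripts and transcripts kept there, while RNA in the cytosol is the pool open to translation. A change of a transcript's amount that is alike in both pools is seen as folds of the same sign and size, and a change of its distribution as folds that differ.

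The 4 libraries held between 5914489 reads (NC cytosol) and 8201848 reads (FLII knockdown nuclear). The noncoding RNAs MALAT1, NEAT1, MEG3 and KCNQ1OT1, which stay largely in the nucleus, summed to 50.9 and 51.8 CPM (counts scaled to the library total) in the cytosol libraries and to 594 and 732 in the nuclear ones, NC first. MEG3 alone differed little, at 3.04 and 3.19 CPM in cytosol and 3.95 and 3.90 in nuclear RNA. The cytosol RNA markers RPLP0, RPS2, GAPDH, EEF1A1 and ACTB summed to 53291 and 50554 CPM in cytosol. In nuclear RNA they still summed to 35615 and 34466 CPM. Of these, EEF1A1 was higher in nuclear RNA, at 9152 and 9371 CPM against 4147 and 3853 in cytosol. How much cytosolic RNA the nuclear libraries held was not tested. The 11 epithelial markers summed to between 13759 and 14930 CPM and none was at 0. The 9 markers of H1299, the other line, summed to between 8.96 and 21.8 CPM, against 5025 to 8175 in the H1299 vector libraries. Those of fibroblasts summed to between 9.72 and 13.7 CPM. Secretory markers differed between the groups, at 18.8 and 10.5 CPM in cytosol and 68.4 and 17.2 in nuclear RNA, but BPIFA1, described below, makes up most of both differences. SCGB1A1, the club cell marker, had 1 to 3 reads in each library.

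FLII itself had 1614 reads in NC cytosol and 236 in FLII knockdown cytosol, and 2769 reads in NC nuclear and 402 in FLII knockdown nuclear RNA. Both knockdown libraries lay far below their NC library, as the labels call for. The log2 fold was −2.94 (95% interval −3.15 to −2.75) in cytosol and −2.98 (−3.13 to −2.83) in nuclear RNA, a 7.68-fold and a 7.87-fold reduction. The difference of the folds, nuclear minus cytosol, was smaller than the width of either interval. LLGL1, SMCR7 and TOP3A, genes near FLII on the chromosome, were not lower: LLGL1 had 840 and 1115 reads in cytosol and 527 and 626 in nuclear RNA, NC first. The log2 folds of SMCR7 were 0.20 and 0.00 and those of TOP3A were 0.07 and −0.08 in cytosol and nuclear RNA, with intervals that included 0.

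Away from FLII the folds were small. The SD of the log2 fold over the 8593 genes was 0.26 in cytosol and 0.22 in nuclear RNA, and across genes, which are not independent replicates, the folds of the pairs correlated with a Pearson r of 0.35 and a Spearman rho of 0.29. A direction shared by both pairs was found for 5247 genes, or 61.1%. At a fold of 2 or more, 31 genes (0.361% of those tested) moved in cytosol and 19 (0.221%) in nuclear RNA, and 7 genes, or 0.0815%, moved alike in both, 2 higher (0.0233%) and 5 lower (0.0582%). At a fold of 1.5 or more, 228 genes (2.65%) moved in cytosol and 152 (1.77%) in nuclear RNA. Of these, 49 (0.57%) moved alike in both pairs, 26 higher (0.303%) and 23 lower (0.268%). This was 21.5% of the genes that moved in cytosol and 32.2% of those that moved in nuclear RNA. No gene moved 1.5-fold in opposite directions.

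**Figure D1:**
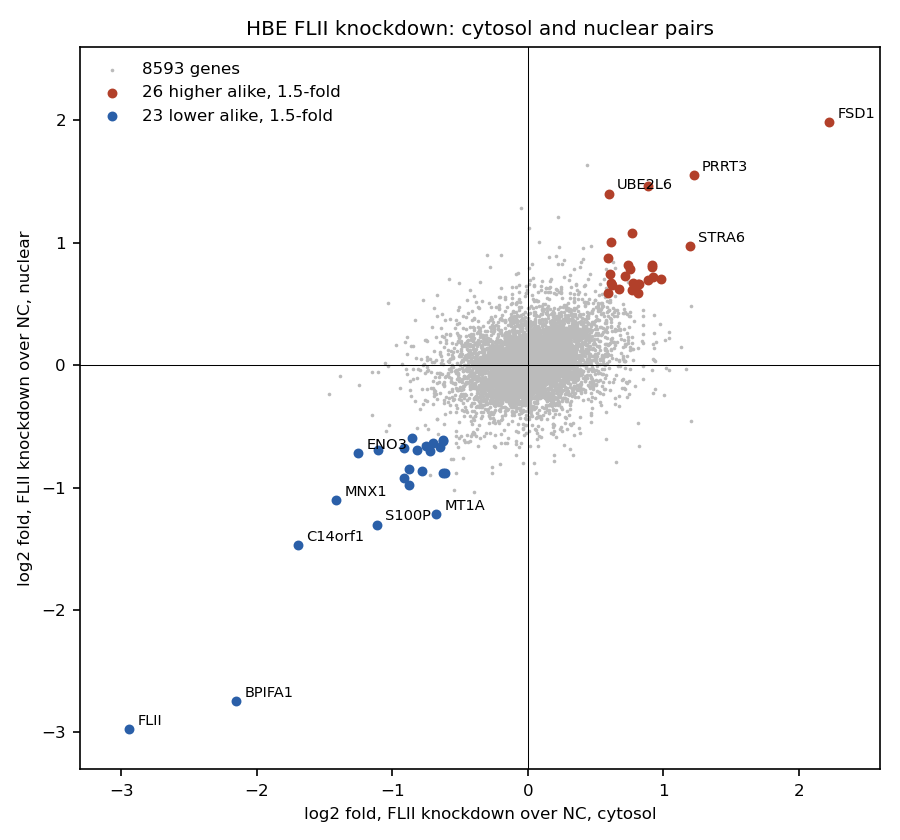
Log2 fold of FLII knockdown over NC in the cytosol pair (x axis) and in the nuclear pair (y axis) of HBE cells, 1 point per gene for 8593 genes. The 26 genes 1.5-fold higher in both pairs are red and the 23 genes 1.5-fold lower in both are blue. FLII lies at −2.94 and −2.98, BPIFA1 at −2.15 and −2.74, and FSD1 at 2.22 and 1.99, away from the rest.

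After FLII, BPIFA1 was the transcript reduced most. It encodes a secreted antimicrobial and surfactant protein of the upper airway, also known as SPLUNC1. It had 53 reads in NC cytosol, 13 in FLII knockdown cytosol, 401 in NC nuclear and 68 in FLII knockdown nuclear RNA, so each knockdown library was below its NC library. The log2 fold was −2.15 (−3.20 to −1.30) in cytosol and −2.74 (−3.15 to −2.38) in nuclear RNA. C14orf1, the human counterpart of a yeast gene of sterol synthesis, had 220 and 76 reads in cytosol and 238 and 98 in nuclear RNA, NC first. Its log2 folds were −1.70 (−2.10 to −1.32) and −1.47 (−1.83 to −1.13). MNX1, a homeobox transcription factor, had 164 and 69 reads in cytosol and 158 and 84 in nuclear RNA (log2 folds −1.41 and −1.10). S100P, a calcium-binding protein of epithelial cells and many carcinomas, was the most abundant of these 4, at 237 and 111 RPKM (reads scaled to gene length and library total) in cytosol and 179 and 74.3 RPKM in nuclear RNA. Its reads fell from 715 to 372 and from 671 to 311, and its log2 folds were −1.11 (−1.30 to −0.93) and −1.30 (−1.50 to −1.11).

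Both genes that were 2-fold higher in both pairs started from low levels. FSD1, which encodes a protein with a fibronectin type III and a SPRY domain that associates with microtubules, had 16 and 86 reads in cytosol and 10 and 47 in nuclear RNA, NC first. Its log2 folds were 2.22 (1.48 to 3.13) and 1.99 (1.04 to 3.19). PRRT3, a proline-rich transmembrane protein, had 18 and 48 reads in cytosol and 36 and 122 in nuclear RNA, and log2 folds of 1.22 (0.44 to 2.11) and 1.55 (1.02 to 2.15). The wide intervals follow from these counts. In cytosol an interval reached a median of 0.72 to either side on the log2 scale for genes with 50 to 100 summed reads, and 0.155 for genes with 1000 to 2000.

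**Figure D2:**
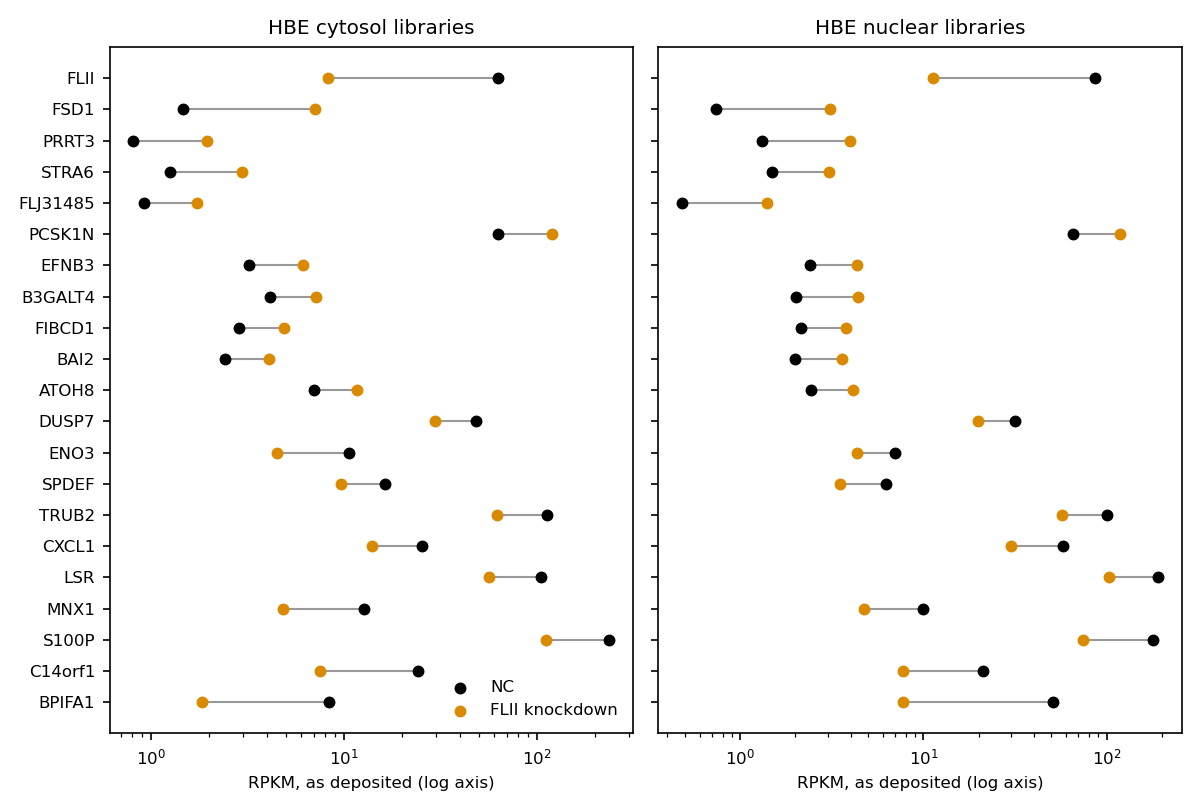
Deposited RPKM on a log axis in the cytosol (left) and nuclear (right) libraries of HBE cells for FLII and for the 10 genes with the largest smaller-of-both fold in each direction among those moved 1.5-fold alike. Black points are NC and orange points FLII knockdown, 1 library each. S100P, LSR, TRUB2 and PCSK1N are abundant, while FSD1, PRRT3 and FLJ31485 lie near or below 5 RPKM except FSD1 at 7.07 in FLII knockdown cytosol.

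Genes of airway secretion and mucosal defence were the list with most members among the 49. The list held 12 genes with enough reads, of which 3 were 1.5-fold lower and 1 was 1.5-fold higher in both pairs. Beside BPIFA1, the lower ones were PI3 and SPDEF. PI3, the elastase inhibitor elafin, had 95 and 70 reads in cytosol and 226 and 140 in nuclear RNA (log2 folds −0.61 and −0.88). SPDEF, a transcription factor of mucus-producing cells, had 185 and 121 reads in cytosol and 88 and 55 in nuclear RNA (log2 folds −0.78 and −0.87). The higher one was DMBT1, a large secreted scavenger receptor of mucosal surfaces, with 183 and 315 reads in cytosol and 771 and 1777 in nuclear RNA (log2 folds 0.61 and 1.01). AQP3, an aquaporin of basal cells, did not reach the size used (0.585 on the log2 scale), at −0.47 and −0.42 with intervals below 0. TFF1, a secreted trefoil peptide, had too few reads to be kept, with 16 and 5 in cytosol and 23 and 4 in nuclear RNA. The list's median log2 fold was −0.12 in cytosol and −0.33 in nuclear RNA, against 0.00 over all genes in both pairs.

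Squamous differentiation genes had 1 of 19 kept members 1.5-fold lower in both pairs and none higher. This was SERPINB3, the protease inhibitor known as squamous cell carcinoma antigen, with 73 and 38 reads in cytosol and 243 and 172 in nuclear RNA (log2 folds −1.10 and −0.69). SERPINB3 has a near-identical neighbour, SERPINB4, so its reads may be shared between the copies. S100A8, a subunit of the antimicrobial dimer calprotectin, had log2 folds of −0.74 (−1.18 to −0.32) and −0.52 (−0.80 to −0.23). S100A9, the other subunit, was at −0.21 and −0.19. By intervals alone, a rule with no limit on size chosen after the data were seen, 586 genes (6.82%) moved alike, 273 higher (3.18%) and 313 lower (3.64%). The balance turned with the scaling, at 359 higher and 240 lower with total counts, and was 231 higher and 388 lower with the GC trend removed. By this rule 4 members of the squamous list were lower and 2 were higher, and its medians were −0.08 and 0.00. The higher ones were PPL, the desmosomal protein periplakin (0.58 and 0.35), and TGM2, a transglutaminase (0.22 and 0.18). Among keratins, none of 15 kept genes moved 1.5-fold. By intervals 6 keratins were lower in both pairs, among them KRT7 (−0.20 and −0.29), and 2 were higher, KRT19 (0.31 and 0.16) and KRT17 (0.07 and 0.03).

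The chemokine genes CXCL1, CXCL2 and CXCL3 are close copies on chromosome 4 that encode attractants of neutrophils, and CXCL2 did not follow the other copies. CXCL1 had 178 and 109 reads in cytosol and 505 and 293 in nuclear RNA, NC first. Its log2 folds were −0.87 (−1.24 to −0.53) and −0.98 (−1.19 to −0.77). CXCL3 had 113 and 81 reads in cytosol and 283 and 204 in nuclear RNA, and its log2 folds were −0.65 (−1.08 to −0.23) and −0.66 (−0.93 to −0.40). CXCL2 had 138 and 137 reads in cytosol and 379 and 378 in nuclear RNA. Its log2 folds of −0.18 (−0.53 to 0.17) and −0.20 (−0.41 to 0.01) had intervals that included no change. CXCL1 minus CXCL2 was −0.69 (95% interval from the inverse counts −1.18 to −0.21) in cytosol and −0.78 (−1.07 to −0.49) in nuclear RNA. CXCL3 minus CXCL2 was −0.47 in both, with an interval that included 0 in cytosol and ran from −0.80 to −0.14 in nuclear RNA. CXCL2 and this contrast were chosen after the values were seen, and reads of such similar genes can be assigned to the wrong copy. IL8, a further chemokine of the family, had log2 folds of −0.75 (−1.41 to −0.12) and −0.29 (−0.67 to 0.09).

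The promoters of these 3 genes are shown because the letters that match the NF-kB motif are the same in all 3. Each line gives the 80 bases from 100 to 21 bases before the gene's start, 5′ to 3′ on the gene's strand, from the RefSeq promoter table of build GRCh38.p14. Capitals mark matches, on either strand, to the NF-kB motif GGGNNTTCC or to a longer form with 1 more free base in the middle. The longer form was added after the data were seen, and its matches on the opposite strands overlap by all but 1 base at each end. The stretches lie at chr4:73869293-73869372 on the plus strand (CXCL1), chr4:74099216-74099295 on the minus strand (CXCL2) and chr4:74038710-74038789 on the minus strand (CXCL3).
CXCL1: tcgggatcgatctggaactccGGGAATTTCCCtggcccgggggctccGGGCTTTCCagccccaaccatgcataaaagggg
CXCL2: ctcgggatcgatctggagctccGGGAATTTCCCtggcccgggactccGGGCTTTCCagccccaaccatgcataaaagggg
CXCL3: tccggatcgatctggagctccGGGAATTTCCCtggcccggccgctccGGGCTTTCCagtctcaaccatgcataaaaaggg
The nearer match began 53 bases before the gene start in all 3, and the farther one began 79 bases before it in CXCL1 and CXCL3 and 78 bases before it in CXCL2. Over the promoters of 7020 kept genes found in the table, 8.19% held the shorter form and 7.64% the longer one, within 250 bases before and 50 after the gene start. Of the NF-kB and inflammatory list, 25 genes were kept, and CXCL1 and CXCL3 were the only ones that moved 1.5-fold in both pairs. RELA, an NF-kB subunit, was higher by intervals, at 0.20 and 0.14.

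Genes of antigen processing and the interferon response lay on the higher side. Of 25 kept members of the interferon list, 1 was 1.5-fold higher in both pairs. By intervals alone 8 were higher (32%, against 3.18% of all kept genes) and none was lower. The list's medians were 0.18 in cytosol and 0.15 in nuclear RNA. PSMB9, a catalytic subunit of the immunoproteasome, had 167 and 284 reads in cytosol and 143 and 300 in nuclear RNA, NC first. Its log2 folds were 0.59 (0.31 to 0.88) and 0.87 (0.58 to 1.17). PSMB8, the subunit encoded beside it, had 422 and 632 reads in cytosol and 672 and 981 in nuclear RNA (log2 folds 0.41 and 0.35). B2M, the light chain of class I antigen-presenting molecules, was at 0.19 and 0.23. UBE2L6, the conjugating enzyme of the interferon-induced modifier ISG15, was in no list and was named after its values were seen. It had 132 and 225 reads in cytosol and 51 and 155 in nuclear RNA, and log2 folds of 0.60 (0.28 to 0.92) and 1.40 (0.94 to 1.90). Of the classic interferon-induced genes, ISG15 had log2 folds of 0.14 and −0.04, with intervals that included 0, and IFIT1 had 1 to 23 reads per library.

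Of the 49 genes, 37 were in none of the lists, and those of them that moved less than 2-fold were named after their values were seen. Among the higher ones, LGALS1, the secreted lectin galectin-1, was the most abundant, at 607 and 934 RPKM in cytosol and 330 and 566 RPKM in nuclear RNA. Its reads were 2003 and 3432, and 1351 and 2590, so both knockdown libraries were above NC, with log2 folds of 0.61 (0.53 to 0.69) and 0.75 (0.65 to 0.84). PCSK1N, which encodes the prohormone convertase inhibitor proSAAS, had 388 and 825 reads in cytosol and 505 and 1017 in nuclear RNA (log2 folds 0.92 and 0.82). STRA6, the cell surface receptor for retinol-binding protein, had log2 folds of 1.20 and 0.98. NNMT, nicotinamide N-methyltransferase, had 184 and 367 reads in cytosol and 215 and 390 in nuclear RNA (log2 folds 0.82 and 0.66). PRKCDBP, a protein of caveolae, had 509 and 865 reads in cytosol and 374 and 645 in nuclear RNA and a log2 fold of 0.59 in both. EFNB3 (an ephrin ligand), ADORA1 (an adenosine receptor), BAI2 (an adhesion receptor) and IL24 (a cytokine) were also in this set, with log2 folds from 0.67 to 0.98. Among list members, TGFB1I1, a focal adhesion protein also called Hic-5, was at 0.62 and 0.65 and was the only one of 14 kept SRF target genes to move 1.5-fold. GPX2, the epithelial glutathione peroxidase, was at 0.61 and 0.67.

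Among the lower genes outside the lists, LSR, a receptor at tricellular tight junctions, had the most nuclear reads, with 1413 and 846 in cytosol and 3196 and 1924 in nuclear RNA. Its log2 folds were −0.91 (−1.04 to −0.79) and −0.93 (−1.01 to −0.84). TRUB2, a pseudouridine synthase of mitochondria, had 953 and 585 reads in cytosol and 1057 and 673 in nuclear RNA (log2 folds −0.87 and −0.84). DUSP7, a phosphatase of ERK, was at −0.72 and −0.70. CBR1, carbonyl reductase, had 1123 and 718 reads in cytosol and 1709 and 1212 in nuclear RNA (log2 folds −0.82 and −0.69). SMARCC2, a subunit of the SWI/SNF chromatin remodelling complex, was at −0.70 and −0.63, and BZW1, a regulator of translation initiation, at −0.85 and −0.59. BCYRN1 was the entry with the highest RPKM among the lower genes, with 3374 and 2458 reads in cytosol and 612 and 379 in nuclear RNA. It is a short noncoding RNA that shares its sequence with Alu repeats, so its count is uncertain.

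The actin cytoskeleton, to which FLII belongs by function, moved little. None of 47 kept members changed 1.5-fold in both pairs. By intervals alone 6 were lower (12.8%) and 1 higher (2.13%), against 3.64% and 3.18% of all kept genes. Among all genes with 1000 or more summed reads in each pair, 11.6% were lower and 7.47% higher. The list's medians were −0.03 and −0.02. Its 6 lower members were headed by both cytoplasmic actins. ACTG1 had 12299 and 9612 reads in cytosol and 10046 and 7915 in nuclear RNA, and log2 folds of −0.53 (−0.56 to −0.49) and −0.54 (−0.58 to −0.49). ACTB had 55073 and 50441 reads in cytosol and 45340 and 41525 in nuclear RNA (log2 folds −0.30 and −0.32). ACTN1 and TPM4, which crosslink and coat filaments, were at −0.24 and −0.25, and at −0.21 and −0.26. Actin genes have many near-identical pseudogenes, which the counting may split. The gelsolin family and FLII partners had 12 kept members, none of which moved 1.5-fold. MYD88, a signalling adaptor reported to bind FLII, was at 0.29 and 0.27, and GSN, gelsolin, at −0.15 and −0.06. VILL, a villin-like relative of FLII, had too few reads to be kept but was 2-fold higher in both pairs at a lower minimum, with 6 and 22 reads in cytosol and 11 and 35 in nuclear RNA. At the same lower minimum ACTG2, an actin gene, was 2-fold lower in both pairs. It had 35 and 17 reads in cytosol and 16 and 7 in nuclear RNA (log2 folds −1.19 and −1.32).

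Of 15 kept integrin and laminin chains, 4 were higher by intervals (26.7%, against 3.18% of all kept genes) and none lower. The other 11 did not pass in both pairs. The list's medians were 0.14 in cytosol, 0.12 in nuclear RNA and −0.07 in mRNA. ITGA5, a chain of the fibronectin receptor, had 84 and 141 reads in cytosol and 252 and 369 in nuclear RNA, NC first (log2 folds 0.57 and 0.36). Of 20 kept adhesion and extracellular matrix genes, 3 were higher by intervals (15%) and none lower. Their medians were 0.02, 0.15 and −0.09 in the same order, over the 20 genes. LOXL2, a collagen crosslinking enzyme of that list, was at 0.55 and 0.51. TGFB1, the growth factor TGF-beta 1, had 956 and 1637 reads in cytosol and 634 and 949 in nuclear RNA (log2 folds 0.61 and 0.39).

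Metallothioneins, small zinc- and copper-binding proteins, were on the lower side in both fractions. The list medians over 8 kept genes were −0.22 in cytosol, −0.40 in nuclear RNA and 0.00 in mRNA. MT1A had 57 and 40 reads in cytosol and 78 and 38 in nuclear RNA and was the only one 1.5-fold lower in both pairs, at −0.67 and −1.22. By intervals 5 were lower (62.5%, against 3.64% of all kept genes) and none was higher. The lower ones included MT1G (−0.55 and −1.02) and the most abundant, MT2A (−0.08 and −0.12). MT1A had no read in either mRNA library, so its log2 fold of 0 there came only from the added reads. No minimum of reads was set for the mRNA pair, and the mRNA median, which counts MT1A, cannot show whether the family fell there. Members of this family are near-identical, so the counts of single genes are uncertain and the 5 lower genes are not separate observations.

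Cytosolic ribosomal protein genes shifted by a small amount in 1 direction. None of the 79 kept genes moved 1.5-fold, but 48 were lower by intervals in both pairs and none was higher. The medians were −0.11 in cytosol and −0.09 in nuclear RNA. High counts make small shifts detectable: 78 of these genes had 1000 or more summed reads in each pair, and over all 1981 genes with such counts 11.6% were lower alike and 7.47% higher alike, with medians of 0.00 and −0.03. RPS21 was among the most reduced, with 8016 and 6892 reads in cytosol and 14207 and 12191 in nuclear RNA (log2 folds −0.39 and −0.41). With another scaling, by total counts, the number was 40, and with the trend on gene length removed it was 33. By intervals, 3.64% of all kept genes were lower and 3.18% higher. Translation factors had 8 of 44 kept genes lower (18.2%) and none higher, and splicing factors 10 of 63 lower (15.9%) and none higher. Neither list had a 1.5-fold change, and these shares were not far from the 11.6% of genes with high counts. Also by intervals, nuclear-encoded genes of oxidative phosphorylation had 8 of 76 lower (10.5%) and 2 higher (2.63%). Heat shock chaperones had 4 of 22 lower (18.2%) and none higher. Sterol and fatty acid synthesis genes had 4 of 31 lower (12.9%) and 1 higher (3.23%), and cell cycle genes 2 of 48 lower (4.17%) and 6 higher (12.5%). In 28 of the 37 lists no gene moved 1.5-fold in both pairs. No member of the p53 and RB pathway, mRNA export and nuclear pore or aminoacyl-tRNA synthetase lists moved by either rule.

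**Figure D3:**
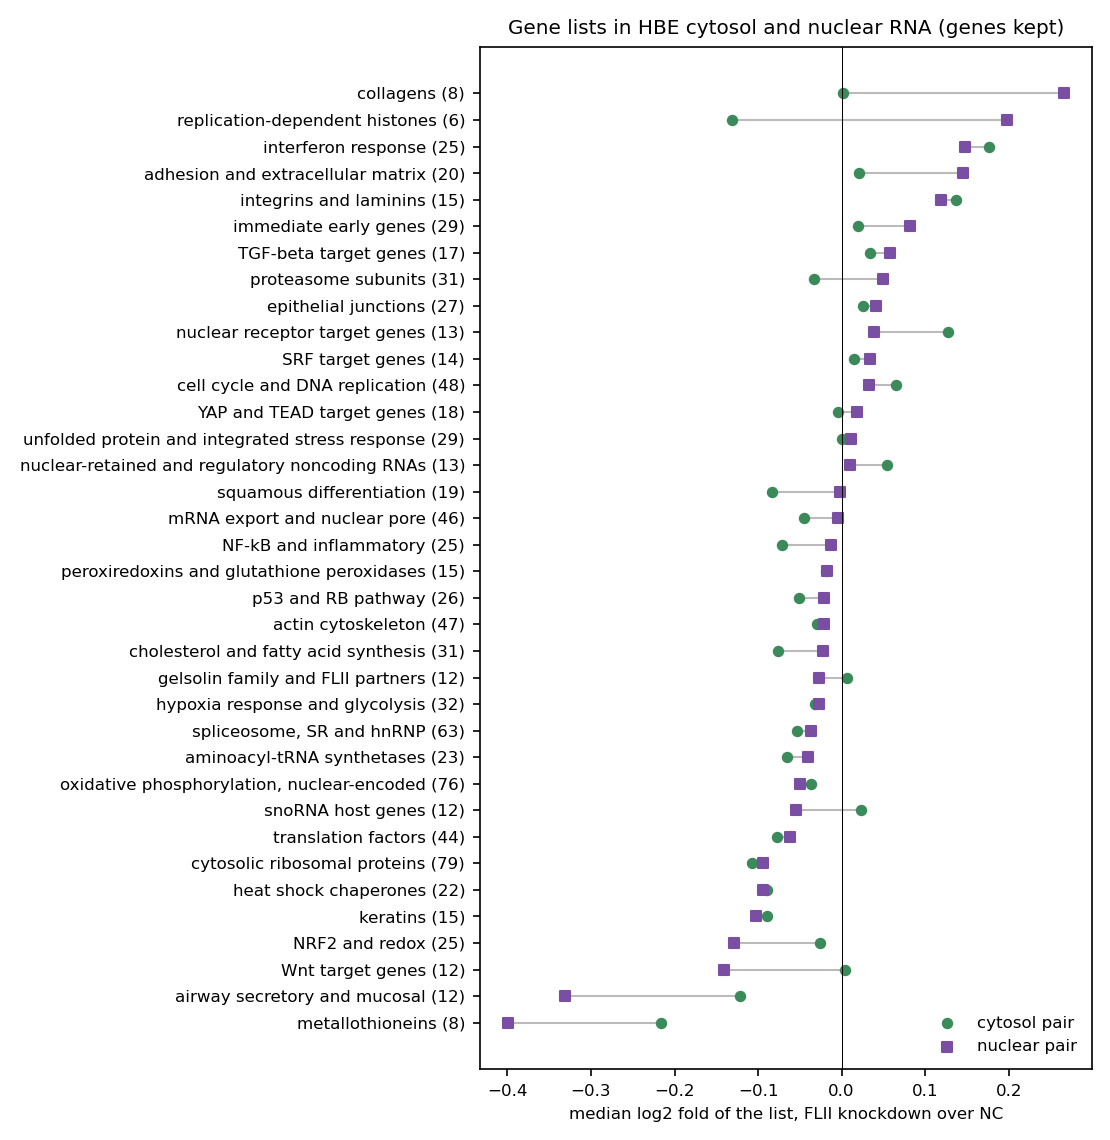
Median log2 fold of FLII knockdown over NC for each gene list with 5 or more kept genes (number kept in parentheses), in the cytosol pair (green circles) and the nuclear pair (purple squares) of HBE cells. Metallothioneins (−0.22 and −0.40) and airway secretory genes (−0.12 and −0.33) are lowest in nuclear RNA, interferon response genes (0.18 and 0.15) are on the higher side in both pairs, and most lists lie within 0.1 of 0.

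The HBE mRNA pair, made of libraries that took no part in choosing the genes, was read for the 48 genes other than FLII that moved 1.5-fold alike. Of the 22 lower genes, 18 were lower in mRNA and 17 were 1.5-fold lower with an interval below 0, where 6.53% of all kept genes passed that rule. None was 1.5-fold higher there, and the median log2 fold was −1.08. Of the 26 higher genes, 19 were higher in mRNA and 11 were 1.5-fold higher, where 4.1% of all kept genes passed. The median was 0.54, and 2 genes, KLK9 and FLJ31485, were 1.5-fold lower. KLK9, a kallikrein protease, had 138 and 273 reads in cytosol and 109 and 198 in nuclear RNA but 130 and 38 in mRNA, NC first. BPIFA1 had 70 and 2 reads in mRNA and S100P 716 and 150, so both were lower in all 3 pairs. FSD1 had 6 and 13 reads in mRNA, and its interval of −0.37 to 2.81 included no change. DMBT1, FIBCD1 and PRRT3 were higher in all 3 pairs, with log2 folds in mRNA of 1.57, 1.88 and 1.43. UBE2L6 and PSMB9 were not higher in mRNA, at −0.07 and −0.15 with intervals that included 0.

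The mRNA libraries also held changes that the fractions lacked, so the mRNA readout is not a repeat of the same measurement. The SD of the log2 fold was 0.43 in mRNA. NDRG1, a gene induced by low oxygen, had 617 and 368 reads in cytosol and 723 and 516 in nuclear RNA but 13768 and 720 in mRNA. Its log2 folds were −0.92, −0.68 and −4.25, so the NC mRNA library stood far above all others. CA9, another such gene, named after its values were seen, had log2 folds of −0.03 and −0.24 in the fractions and −4.43 in mRNA. The 32 kept hypoxia and glycolysis genes had medians of −0.03 in both fractions and −0.80 in mRNA. The median fold of the interferon list was −0.16 in mRNA and that of the keratins 0.21, signs opposite to those in the fractions. The part of culture state in these differences was not tested.

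**Figure D4:**
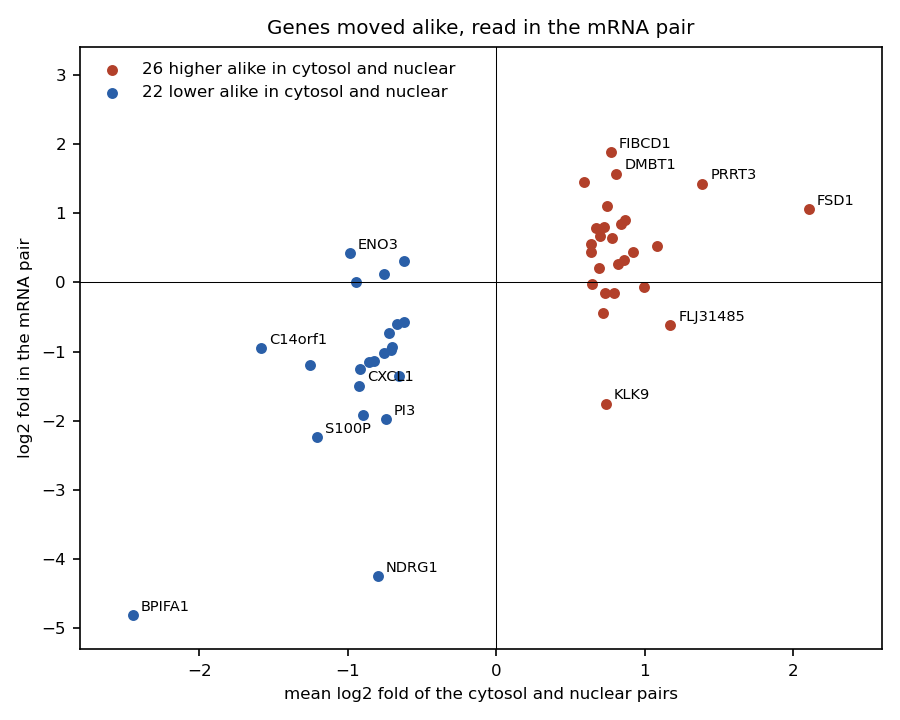
Mean log2 fold of the cytosol and nuclear pairs (x axis) against the log2 fold of the HBE mRNA pair (y axis) for the 26 higher (red) and 22 lower (blue) genes that moved 1.5-fold alike, FLII left out. Lower genes lie mostly below 0 on the y axis, with BPIFA1 at −4.81 and NDRG1 at −4.25, while higher genes lie on both sides, with KLK9 at −1.75.

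Folds that differed between the fractions were rare. The nuclear minus cytosol log2 fold was at least 1 in size, with an interval excluding 0, for 43 genes (0.5%), 30 with the higher fold in nuclear RNA (0.349%) and 13 with the higher fold in cytosol (0.151%). Most had few cytosolic reads. ATF7IP, a chromatin regulator, had 35 and 19 reads in cytosol and 44 and 72 in nuclear RNA, a difference of 1.54 (0.58 to 2.51). TUSC3, a subunit of the protein glycosylation machinery, had 52 and 41 reads in cytosol and 147 and 268 in nuclear RNA, a difference of 1.18 (0.52 to 1.83). C12orf5, the glycolysis regulator TIGAR, had 106 and 66 reads in cytosol and 187 and 239 in nuclear RNA, a difference of 1.01 (0.49 to 1.53). In the other direction, HEATR1, a factor of ribosome assembly in the nucleolus, had 14 and 37 reads in cytosol and 210 and 175 in nuclear RNA, a difference of −1.66 (−2.58 to −0.74). BCLAF1, an RNA-processing factor, had 20 and 47 reads in cytosol and 327 and 364 in nuclear RNA, a difference of −1.08 (−1.86 to −0.31). By intervals alone, 32 genes had opposite signs in the pairs, 14 with the higher fold in nuclear RNA and 18 in cytosol.

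**Figure D5:**
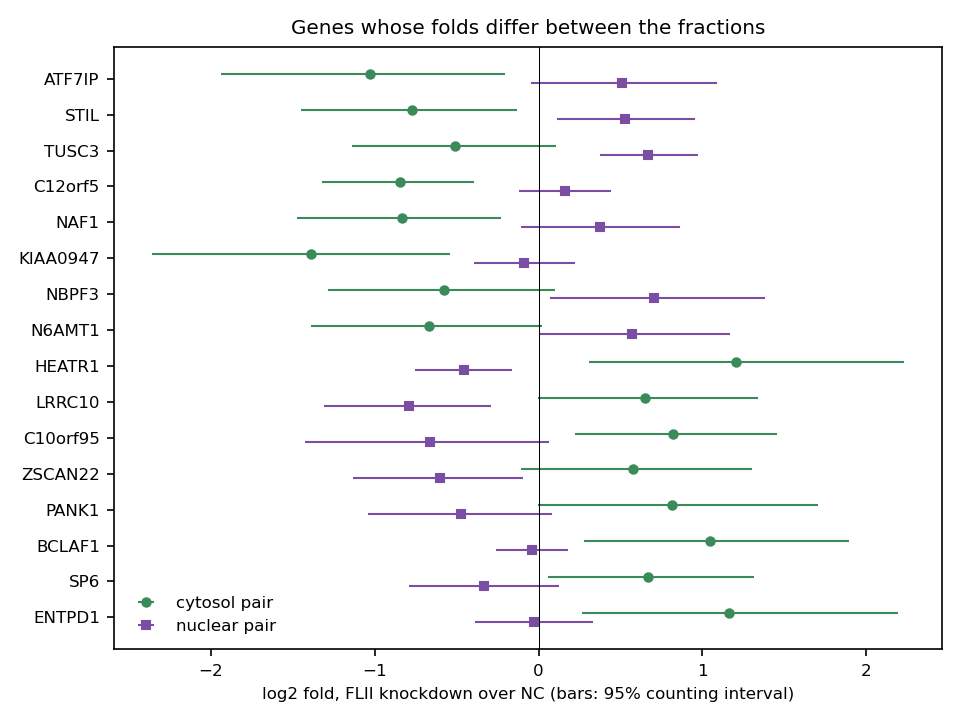
Log2 fold of FLII knockdown over NC in the cytosol pair (green circles) and nuclear pair (purple squares), with 95% counting intervals as bars. Shown are the 8 genes in each direction for which the interval bound of the difference nearest 0 was largest in size. ATF7IP to N6AMT1 have the higher fold in nuclear RNA and HEATR1 to ENTPD1 in cytosol, and single intervals are wide.

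A fit of all 4 libraries with fraction as a block, in which the fractions stand in for replicates, gave 588 genes (6.84%) at an adjusted p under 0.05 with the quasi-likelihood test of edgeR and Benjamini-Hochberg adjustment, 298 higher (3.47%) and 290 lower (3.37%). It leaves 1 residual degree of freedom per gene. The adjusted p there says how far the folds of the pairs agree within the counts, not how far separate cultures would. All 49 genes moved 1.5-fold alike were among the 588, with adjusted p-values of at most 0.0144, but they were chosen on the same folds. The count fell to 98 with DESeq2 and to 9 when the mRNA pair was added as a further pair, and to 0 without the block (6 at an unadjusted p under 0.05).

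The higher and lower sets differed in base composition. The 25 higher genes with a value had a median GC content of 61.6%, the 21 lower ones other than FLII 53% and all kept genes 52.6%. The rank correlation of the log2 fold with GC over genes was 0.18 in cytosol, −0.02 in nuclear RNA and −0.29 in mRNA. With the GC trend removed from each pair, 40 of the 47 genes with a value were still 1.5-fold alike, and all 7 genes at 2-fold were called. Promoters were found in the table for 18 higher and 15 lower genes. The TEAD motif GGAATG was present in none of the 18 and in 4 of the 15, against 10.3% of kept genes. The AP-1 motif TGANTCA was present in 1 of each, against 4.2%, and the antioxidant response motif TGACNNNGC in 4 and 2, against 15.6%. These are matches of letters in a window of 300 bases on either strand, and sets this small give no basis for a difference.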

How the data were processed

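Read counts of polyA RNA were compared in HBE NC and FLII knockdown cytosol and nuclear libraries, with the HBE mRNA pair and the H1299 vector libraries as readouts and marker references. Per the file headers, the authors deposited read counts, RPKM values and lengths for 23709 RefSeq genes, with splice variants merged. The deposited counts are whole numbers, and the deposited RPKM equals the count over length and library total for all values. The submitters' processing notes name the builds GRCh37 and hg19. The aligner, the counter and strandedness were not given in the sources used here, nor was the way the fractions were separated, so antisense and overlapping genes cannot be told apart.

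Libraries were grouped by title. Each pair was scaled with TMM (edgeR 4.0.16, R 4.3.3), with 0.5 reads added after scaling, and genes with fewer than 50 summed reads in either pair were left out. Folds have exact conditional binomial intervals (scipy 1.17.1). With 1 library per group there is no p-value for a pair. The difference of folds has a 95% interval from the inverse counts. The blocked fit used glmQLFit and glmQLFTest, with DESeq2 1.42.0 as an alternative. Scripts were tested on simulated data. In RNA of a population of cells, fewer cells of a type and less RNA per cell cannot be told apart, and PCR copies cannot be seen in counts. Promoters come from a RefSeq table of GRCh38.p14, matched by RefSeq accession and, where that failed, by symbol or synonym. Alternatives changed the scaling, the minimum of reads, the reads added, the unit, and trends with GC content and length. The 13 kept genes with date-like symbols are not named, and some single genes are not reported here.

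The members and the 37 gene lists (1357 memberships, 1349 found, 935 distinct genes kept, of which 12 moved 1.5-fold alike) were chosen with earlier results of these data known. Named were FLII, genes moved 2-fold alike, up to 4 members of a list moved 1.5-fold alike, list members just short of a rule, and up to 8 genes in each direction by the difference of folds. Some genes outside this rule are marked as named after their values were seen. Others, among them AQP3, IL8, ISG15, IFIT1, GSN, MT2A, FASN and L1CAM, also lie outside it and carry no such mark.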

Additional observations from a re-analysis of the deposited data

Results flagged for a closer look

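In 16 genes the log2 fold of FLII knockdown over NC differed between nuclear and cytosolic RNA by at least 1, with an interval excluding 0. The nuclear minus cytosol difference was 1.54 for ATF7IP, 1.30 for STIL, 1.18 for TUSC3, 1.01 for C12orf5, 1.21 for NAF1, 1.30 for KIAA0947, 1.28 for NBPF3 and 1.24 for N6AMT1. It was −1.66 for HEATR1, −1.44 for LRRC10, −1.48 for C10orf95, −1.18 for ZSCAN22, −1.29 for PANK1, −1.08 for BCLAF1, −1.001 for SP6 and −1.20 for ENTPD1. These are the 8 genes in each direction whose interval bound nearest 0 was largest in size, out of 43 among 8593 genes. The intervals are not adjusted for that number. The centrosome gene STIL had 52 and 34 reads in cytosol and 78 and 129 in nuclear RNA, NC first, and NAF1, a factor of telomerase and small nucleolar RNA assembly, 59 and 37 and then 62 and 92. With at least 100 summed reads in each pair, 2 of the 43 calls were left.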

How the results depend on the processing

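The 1.5-fold alike count of 49 ran from 41 to 67 over the 9 alternatives, and none of these 49 genes, nor of the 16 named for a difference between fractions, reversed direction; other named genes were not recomputed one by one. The 2-fold alike count of 7 was 15 and 14 with at least 1 and at least 20 summed reads in each pair, 4 with at least 100, and 17 from the deposited RPKM with 1 added. The 4 genes left with at least 100 reads were all lower, so FSD1, PRRT3 and BPIFA1 were lost there. From the deposited RPKM, only 33 of the 49 genes and 5 of the 7 passed again at their size. That setting had no interval and called genes on size alone. It also replaced the minimum of reads with an RPKM of at least 1 in either library of each pair, so its counts follow another rule. For the cytosol pair the count of 31 became 223, 126, 7 and 69 in the same order, and 17 with 5 reads added. For the nuclear pair the count of 19 became 171, 64, 7 and 52. Differences between the fractions, 43 at first, became 220, 131, 2 and 84, and 19 with 5 reads added. The blocked fit gave 588 genes, against 98 with DESeq2 (407 at an unadjusted p under 0.05, adjusted p missing for 3832), 9 with the mRNA pair as a further pair (789 unadjusted) and 0 with no fraction block (6 unadjusted in edgeR). With total counts in place of TMM, 68.3% of its calls were higher, against 50.7%. For genes with 50 to 100 summed reads, an interval reached a median of 0.72 in cytosol and 0.68 in nuclear RNA to either side on the log2 scale. That is wider than the 0.585 of a 1.5-fold change, so the 1.5-fold rule was stricter for such genes.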

Other observations

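Some genes not named above moved alike by intervals alone. Among growth regulators, MYC had 1413 and 1225 reads in cytosol and 2418 and 2289 in nuclear RNA, NC first (log2 folds −0.38 and −0.27), and CCND1, cyclin D1, was at −0.26 and −0.46. DUSP1, a phosphatase of stress-activated kinases, had 427 and 642 reads in cytosol and 629 and 1126 in nuclear RNA (log2 folds 0.42 and 0.65). In lipid synthesis, FASN, fatty acid synthase, was at −0.12 and −0.22. L1CAM, a neural adhesion molecule, did not pass in cytosol and was among the 43 genes whose folds differed between the fractions. It had 30 and 46 reads in cytosol and 39 and 140 in nuclear RNA, and its log2 fold was 0.44 (−0.25 to 1.16) in cytosol, 1.64 (1.13 to 2.20) in nuclear RNA and 1.92 (1.54 to 2.34) in mRNA.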
